A study of Mus musculus with 13 samples.

Results

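Macrophages make several of the proteins that start, restrain and clear a blood clot. 8 genes of this system were followed here in bone marrow-derived macrophages (BMDMs) activated with lipopolysaccharide (LPS), a component of the bacterial outer membrane: F3, F7, F10, Procr, Thbd, Plau, Plaur and Serpinb2. They are 8 of the 24562 genes of the count table, and each was taken as the row whose RefSeq transcript carries its symbol. Where a symbol had more than 1 row, the row with the highest total count was used, and this total is the only measured value that the choice of row rested on. The symbols themselves were listed with earlier results of these libraries known, so that none of the p-values below is independent evidence for a gene on the list. F10 and Serpinb2 each had a second row with identical counts.

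BMDMs came from female mice of 2 genotypes. In AclyM-KO mice, Cre recombinase under the control of Lyz2, a gene of myeloid cells, removes a part of Acly flanked by loxP sites. Acly encodes ATP citrate lyase, which makes cytosolic acetyl-CoA from citrate. Control mice (AclyM-WT in the series' design, Acly fl/fl in the methods) carry the loxP sites without Cre, so the Cre allele itself differs between the genotypes along with the loss of Acly. The cells had been grown from bone marrow in medium conditioned by L929 fibroblasts and were exposed to LPS for 3 h or 24 h before RNA-seq. There were 3 control and 3 AclyM-KO libraries at 3 h, and 4 control and 3 AclyM-KO libraries at 24 h. Unstimulated cells were not analysed here, so each value is a level after LPS and not an induction by it. The labels do not say whether the libraries of a group came from separate mice or cultures, and p-values therefore measure the spread between these libraries only.

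One library stood apart. Control 24 h replicate 1 held 34467 counts, against 21274102 to 59577343 in the other 12 libraries, so that 1 count in it equals 22.41 CPM (counts scaled to library size) and 1 count in the others 0.0153 to 0.0512 CPM. Across genes its values had a Spearman correlation of 0.687 to 0.690 with the 3 h libraries and of 0.642 to 0.644 with the other 24 h libraries, which goes against its label. It held 0 counts of F3, F7 and Thbd, 1 count each of F10, Procr, Plaur and Serpinb2, and 3 counts of Plau. All values below come from the other 12 libraries, and some 24 h results are also given with all 13. With all 13, the log2 differences between genotypes at 24 h were 0.67 for Plaur, 0.26 for Plau and -0.59 for Thbd, and F7, F10 and Procr again rose and F3, Plaur and Serpinb2 again fell with time in both genotypes.

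Clotting outside an intact vessel begins when tissue factor (F3), a membrane protein, binds factor VII (F7) and the complex activates factor X (F10), which in turn turns prothrombin into thrombin. Thrombomodulin (Thbd) and the endothelial protein C receptor (Procr) work in the opposite direction: on the cell surface they let thrombin activate protein C, which switches the cascade off. Fibrin is removed by plasmin, which urokinase (Plau) releases from plasminogen, often while held at the cell surface by its receptor (Plaur), and plasminogen activator inhibitor-2 (Serpinb2) blocks urokinase. Monocytes and macrophages are known for exposing tissue factor after contact with LPS and for using the urokinase receptor in migration.

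Promoter windows from RefSeq (GRCm38.p6) were given for 6 of the 8 genes and were searched on both strands for short motifs of factors that act downstream of LPS or set the start site. The search covered the 250 bases before each RefSeq start. The AP-1 motif TGAGTCA was found in 3 of the 6 and in 4.46% of all 32851 windows. The TATA motif TATAAA was found in 1 of the 6 and in 12.4% of all windows. None of the 6 held the NF-kB motif as searched (3.9% of windows), the CRE motif TGACGTCA (1.55%) or the C/EBP motif TTGCGCAA (0.164%), and the windows of F7 and F10 held none of the 5. The NF-kB motif was searched in a single form: GGG, A or G, any base, A or T, C or T, C or T, and CC. Sites that depart from the letters searched were not looked for, so a window without a match can still hold one. The 4 windows with a match are shown up to the last base before the annotated transcript, on the plus strand and with the match in capitals, because F3, Plaur and Serpinb2 fell with time, Procr rose with it, and Serpinb2 and Procr were called between genotypes. A match is a run of letters only, and binding was not measured.
F3, chr3:121723287-121723536: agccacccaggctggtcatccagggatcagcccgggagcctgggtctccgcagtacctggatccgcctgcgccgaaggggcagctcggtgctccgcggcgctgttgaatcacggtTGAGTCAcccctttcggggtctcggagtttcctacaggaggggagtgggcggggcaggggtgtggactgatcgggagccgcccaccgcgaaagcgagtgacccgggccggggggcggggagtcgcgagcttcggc
Plaur, chr7:24462233-24462482: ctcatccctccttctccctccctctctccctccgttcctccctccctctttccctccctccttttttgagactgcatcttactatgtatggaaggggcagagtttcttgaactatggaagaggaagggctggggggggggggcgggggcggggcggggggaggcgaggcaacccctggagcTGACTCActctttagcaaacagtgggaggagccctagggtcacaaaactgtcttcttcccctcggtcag
Procr, chr2:155750967-155751116: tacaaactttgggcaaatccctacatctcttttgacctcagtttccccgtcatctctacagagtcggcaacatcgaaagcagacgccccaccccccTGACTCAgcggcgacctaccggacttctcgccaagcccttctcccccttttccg
Serpinb2, chr1:107511173-107511422: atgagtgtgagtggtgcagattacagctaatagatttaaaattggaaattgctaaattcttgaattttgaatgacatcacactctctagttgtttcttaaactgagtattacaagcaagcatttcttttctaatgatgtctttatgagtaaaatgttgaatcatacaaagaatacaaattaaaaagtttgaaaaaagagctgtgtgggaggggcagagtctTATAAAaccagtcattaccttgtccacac
In Plaur and Procr the AP-1 motif lies on the minus strand and reads TGACTCA on the plus strand. The AP-1 match began 135 bases before the RefSeq start in F3, 69 bases before it in Plaur and 154 bases before it in Procr. The TATA match of Serpinb2 began 29 bases before the start.

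In GRCm38, F7 (chr8:13026034-13035809, plus strand) lies directly upstream of F10 (chr8:13037308-13056676, plus strand). F3 spans chr3:121723537-121735048 on the plus strand, Procr chr2:155751117-155755471 on the plus strand, and Thbd, a gene of a single exon, chr2:148404466-148408188 on the minus strand. Plau spans chr14:20836660-20843385 and Plaur chr7:24462484-24475968, both on the plus strand. Serpinb2 spans chr1:107511423-107535478 on the plus strand and overlaps Serpinb10 on the same strand, so reads in the shared stretch cannot be told apart, and its values are uncertain to that extent.

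The deleted gene went with its labels. Acly was at 106 ± 1.199 CPM (SD, n = 3) in control and 41.8 ± 4.25 CPM (n = 3) in AclyM-KO macrophages at 3 h, and at 110 ± 2.78 CPM (n = 3) against 29.9 ± 0.758 CPM (n = 3) at 24 h. All 8 macrophage markers were expressed, with summed levels of 6915 to 10080 CPM at 3 h and 4523 to 6333 CPM at 24 h. The 7 markers other than Lyz2 summed to 4716 to 4860 CPM in control and 4643 to 4908 CPM in AclyM-KO macrophages at 3 h, and to 3635 to 3812 and 3579 to 3767 CPM at 24 h, with overlapping libraries at both times. Within this sum single markers went both ways at 3 h. Adgre1 was higher in AclyM-KO macrophages without overlap (832 to 882 against 986 to 1056 CPM). Lower without overlap were Cd14 (879 to 931 against 775 to 840 CPM), Mertk (109 to 119 against 88.3 to 101 CPM) and Fcgr1 (291 to 313 against 237 to 280 CPM). None of these was called between genotypes at either time. Lyz2, the gene that carries the Cre, fell in AclyM-KO macrophages (log2 fold change -0.97 at 3 h, adjusted p = 1.101e-07, and -1.40 at 24 h, adjusted p = 1.907e-09, edgeR quasi-likelihood test). The neutrophil markers Ly6g and Retnlg had no counts, and the 9 neutrophil markers summed to 11.9 to 15.3 CPM at 3 h and 3.44 to 4.70 CPM at 24 h. The 4 of them that were tested (Ngp, Ltf, S100a8 and S100a9) fell with time in both genotypes, and 0 of the 4 was called between genotypes. The mast cell markers Mcpt4 and Tpsb2 had no counts. Of the 6 endothelial markers, 3 passed the filter on low counts. Kdr made up most of their sum, which is given beside the genes it moved with. In bulk RNA, fewer cells of a type and less RNA per cell cannot be told apart.

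The order of the 8 genes turned over between 3 h and 24 h. Levels of different genes were compared as CPM per kilobase of transcript. In control macrophages at 3 h, Plaur was the highest at 55.6 ± 1.89 CPM per kilobase (SD, n = 3), followed by Plau at 12.8 ± 0.719, F10 at 7.09 ± 0.985 and Procr at 6.88 ± 0.818. Below them came Serpinb2 at 3.10 ± 0.260, F7 at 3.03 ± 0.123, F3 at 1.62 ± 0.405 and Thbd at 0.135 ± 0.0284. F10 and Procr did not differ beyond their spread, and neither did Serpinb2 and F7. At 24 h, control macrophages had F10 in the first place at 55.5 ± 2.33 CPM per kilobase, then Procr at 29.0 ± 4.25, Plau at 11.5 ± 0.906, F7 at 8.28 ± 0.375 and Plaur at 5.48 ± 0.469. Serpinb2 at 0.541 ± 0.0743, Thbd at 0.232 ± 0.0614 and F3 at 0.00730 ± 0.0126 closed the order, which no longer held a pair of neighbours within each other's spread.

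**Figure D1:**
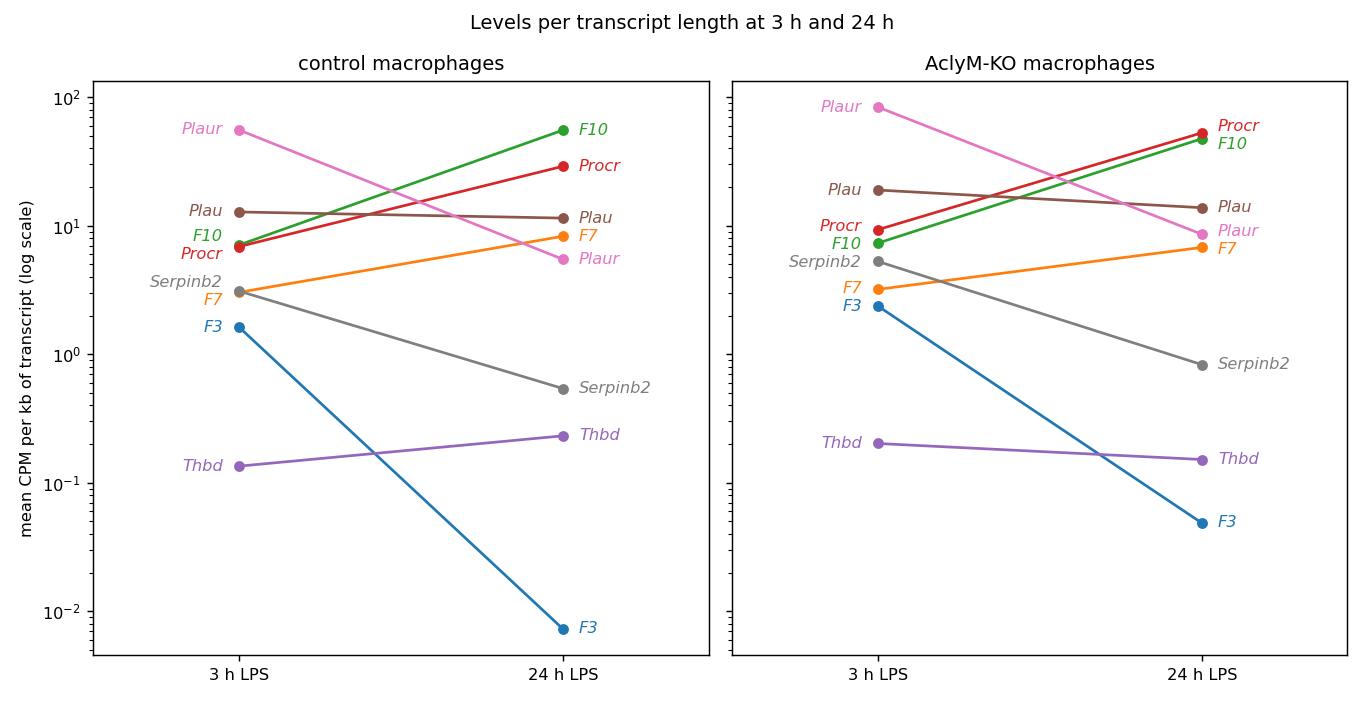
Mean level of the 8 genes in CPM per kilobase of transcript (vertical log axis) after 3 h and 24 h LPS, in control (left) and AclyM-KO (right) macrophages, 3 libraries per point. Plaur led at 3 h in both genotypes. At 24 h F10 led in control at 55.5 and Procr in AclyM-KO macrophages at 52.9, and F3 was the lowest in both.

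AclyM-KO macrophages differed in this order in a few places. At 3 h the sequence was Plaur (83.8 ± 6.02 CPM per kilobase), Plau (19.0 ± 4.31), Procr (9.33 ± 0.735), F10 (7.34 ± 0.683), Serpinb2 (5.28 ± 1.04), F7 (3.20 ± 0.355), F3 (2.37 ± 0.613) and Thbd (0.202 ± 0.117). Of these neighbours F7 and F3 did not differ beyond their spread. At 24 h Procr (52.9 ± 4.54 CPM per kilobase) and F10 (47.6 ± 1.84) did not differ beyond their spread, which was read throughout as means closer than the sum of the SDs. Plau (13.8 ± 0.885), Plaur (8.59 ± 0.186), F7 (6.79 ± 0.122), Serpinb2 (0.831 ± 0.0490), Thbd (0.152 ± 0.0439) and F3 (0.0487 ± 0.0248) followed. In control macrophages at 24 h F10 had been well above Procr.

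The largest movements of these genes were with time. To be called, a gene needed an absolute log2 fold change of more than 0.75 together with an adjusted p-value under 0.05. From 3 h to 24 h, 3 of the 8 genes rose and 3 fell in control macrophages, and the same 6 genes moved the same way in AclyM-KO macrophages. Of all 11942 genes tested, 40.4% were called in control and 42.0% in AclyM-KO macrophages, so changes with time were common among all genes as well. The 2 times did not overlap for 7 of the 8 genes in each genotype (77.5% of all genes in control, 76.8% in AclyM-KO). F3 is in both counts, but it passed the filter on low counts through its 3 h libraries alone, as 3.64% of all genes tested did. Its fall and its lack of overlap were therefore set in advance. The median log2 fold change of the 8 was 0.30 in control (0.76 without F3) and -0.45 in AclyM-KO macrophages (-0.44 without F3), against 0.04 for all genes tested in control and 0.05 in AclyM-KO macrophages.

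Of the starters of clotting, tissue factor fell to near 0 while its partners rose. F3 was at 2.33, 2.95 and 3.84 CPM in the control libraries at 3 h and at 0.0410, 0 and 0 CPM at 24 h. In AclyM-KO macrophages it was at 3.23, 5.51 and 4.57 CPM at 3 h and at 0.0375, 0.121 and 0.115 CPM at 24 h. In each genotype, every 3 h library lay above every 24 h library. Summed over libraries, 187 counts at 3 h stood against 1 count at 24 h in control, a ratio of 344 after scaling to library size (95% exact interval for counting error only, 61.0 to 13670). In AclyM-KO macrophages 284 counts stood against 7, a ratio of 49.8 (23.9 to 125). F3 passed the filter on low counts through its 3 h libraries alone, so it had to differ with time.

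F7 and F10 rose. F7 went from 5.61, 5.43 and 5.88 CPM at 3 h to 15.7, 15.9 and 14.6 CPM at 24 h in control, which was 2.72-fold (log2 1.44, SE 0.10, adjusted p = 4.726e-14, edgeR quasi-likelihood test). F10 went from 15.6, 11.98 and 12.9 CPM to 101, 110 and 105 CPM, which was 7.83-fold (log2 2.97, SE 0.08, adjusted p = 1.125e-24). In AclyM-KO macrophages the rises were 2.11-fold for F7 (log2 1.08, SE 0.10) and 6.50-fold for F10 (log2 2.70, SE 0.08). In both genotypes the 2 times did not overlap for either gene. The ratio of F10 to F7 per kilobase, which does not depend on library size, went from 2.34 ± 0.326 (SD, n = 3) to 6.70 ± 0.399 in control and from 2.33 ± 0.450 to 7.02 ± 0.390 in AclyM-KO macrophages.

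The anticoagulant receptors behaved differently from each other. Procr was at 11.9, 9.50 and 11.6 CPM in control at 3 h and at 39.0, 47.7 and 52.3 CPM at 24 h, a 4.25-fold rise (log2 2.09, SE 0.11, adjusted p = 7.906e-12, edgeR quasi-likelihood test). In AclyM-KO macrophages it was at 14.96, 16.1 and 13.7 CPM at 3 h and at 91.8, 77.3 and 84.1 CPM at 24 h, a 5.66-fold rise (SE 0.11 on the log2 scale). The times did not overlap in either genotype. Thbd stayed under 1.2 CPM throughout, with 0.397, 0.608 and 0.499 CPM in control at 3 h and 0.656, 1.11 and 0.825 CPM at 24 h. Its 3 h and 24 h control libraries did not overlap, but the difference missed the threshold (log2 0.76, SE 0.38, adjusted p = 0.0729). It was called when the fit held the compared groups alone (log2 0.76, adjusted p = 0.0392). In AclyM-KO macrophages Thbd was at 0.307, 1.18 and 0.769 CPM and then at 0.563, 0.402 and 0.729 CPM, and the times overlapped. Procr rose with the summed endothelial markers, which were at 16.9 to 20.2 CPM in control at 3 h and 34.0 to 36.4 CPM at 24 h, and at 21.5 to 24.1 CPM and 45.9 to 53.8 CPM in AclyM-KO macrophages. Their part in the rise was not tested. Of the 3 endothelial markers tested, Kdr (log2 1.01 in control, 1.09 in AclyM-KO) and Pecam1 (1.68 and 2.83) rose with time and Cdh5 fell, to 0.0820 to 0.426 CPM in control at 24 h.

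**Figure D2:**
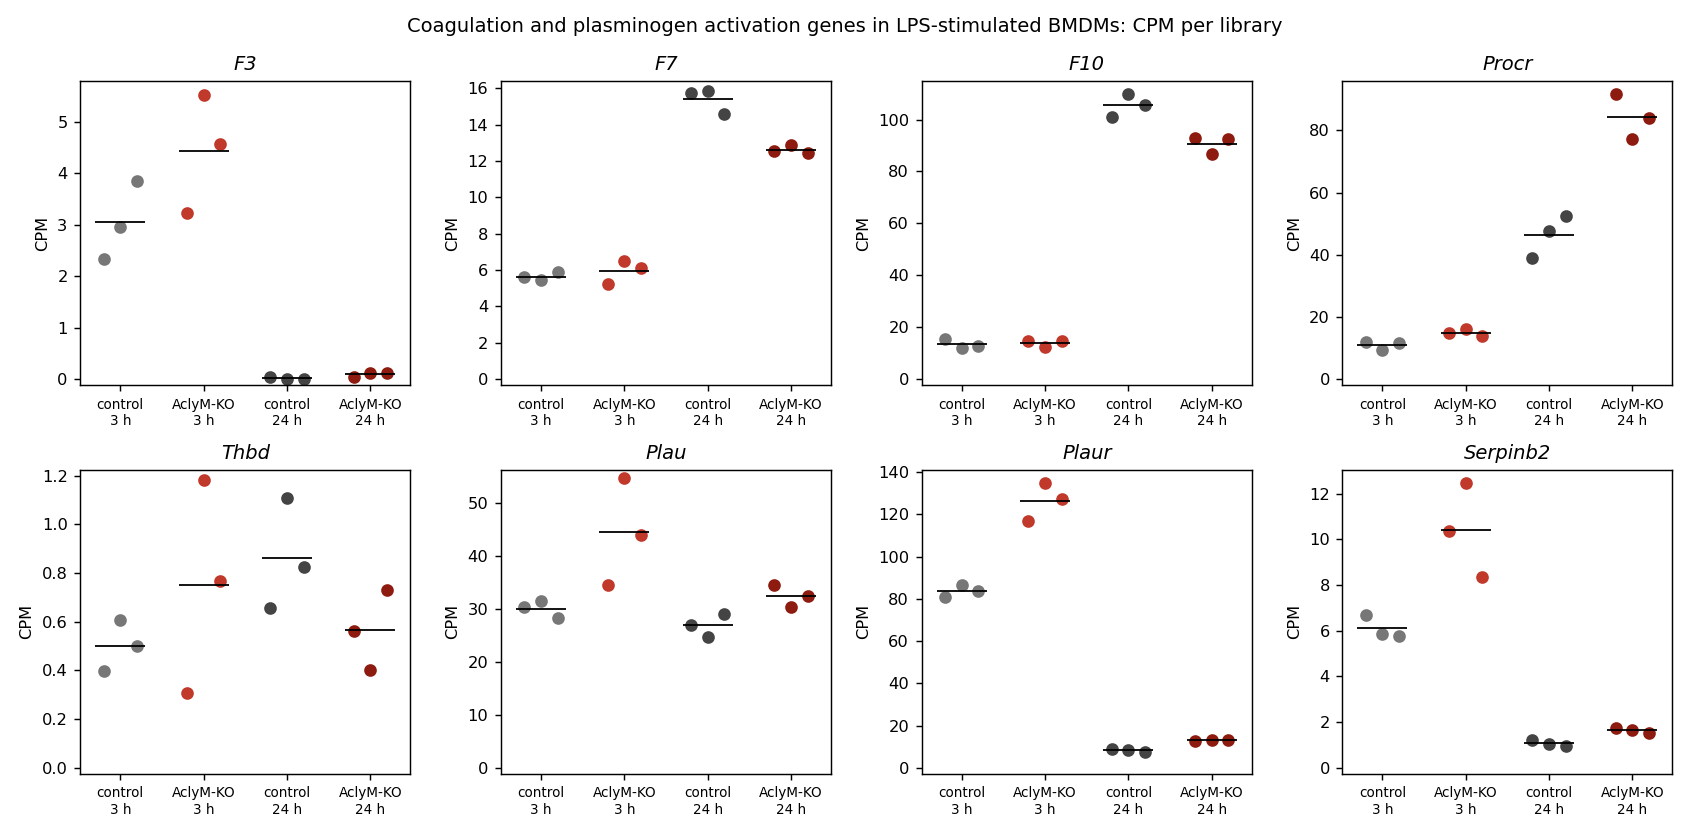
CPM of each of the 8 genes in the 12 libraries (vertical axis, 1 point per library, a bar at each group's mean), grouped by genotype and time. F3, Plaur and Serpinb2 were high at 3 h and low at 24 h, F7, F10 and Procr were the reverse, Plau moved little with time in control macrophages, and Thbd stayed under 1.2 CPM with overlapping libraries between the genotypes at each time.

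Among the genes of plasminogen activation, the receptor and the inhibitor fell while urokinase itself stayed near its level. Plaur was at 80.9, 86.6 and 83.8 CPM in control at 3 h and at 8.94, 8.31 and 7.53 CPM at 24 h, 10.3-fold lower (log2 -3.37, SE 0.07, adjusted p = 6.427e-27, edgeR quasi-likelihood test). In AclyM-KO macrophages it went from 117, 135 and 127 CPM to 12.6, 13.1 and 13.1 CPM, 9.76-fold lower (log2 -3.29, SE 0.07). Serpinb2 was at 6.70, 5.85 and 5.78 CPM in control at 3 h and at 1.23, 1.02 and 0.947 CPM at 24 h, 5.89-fold lower (log2 -2.56, SE 0.18, adjusted p = 6.178e-14). In AclyM-KO macrophages it went from 10.3, 12.5 and 8.37 CPM to 1.73, 1.65 and 1.54 CPM, 6.35-fold lower (log2 -2.67, SE 0.16). Neither gene had overlapping times in either genotype. The summed neutrophil markers fell over the same interval as F3, Plaur and Serpinb2, from 12.6 to 14.3 CPM to 3.44 to 4.70 CPM in control and from 11.9 to 15.3 CPM to 3.74 to 4.47 CPM in AclyM-KO macrophages, and their part in these falls was not tested.

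Plau was at 30.3, 31.5 and 28.2 CPM in control at 3 h and at 27.0, 24.7 and 28.9 CPM at 24 h, and the 2 times overlapped (log2 -0.15, 95% interval -0.45 to 0.15, adjusted p = 0.329, edgeR quasi-likelihood test). In AclyM-KO macrophages it was at 34.5, 54.7 and 44.0 CPM at 3 h and at 34.4, 30.3 and 32.4 CPM at 24 h. The lowest 3 h library lay just above the highest 24 h library there, and the difference passed the p-value but not the fold (log2 -0.46, SE 0.13, adjusted p = 0.00669). The ratio of Plaur to Plau per kilobase thus turned from 4.35 ± 0.248 (SD, n = 3) at 3 h to 0.481 ± 0.0662 at 24 h in control, and from 4.53 ± 0.713 to 0.624 ± 0.0518 in AclyM-KO macrophages.

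The genotypes were then compared at 3 h, to ask how the loss of Acly bears on these genes early after LPS. Serpinb2 was the 1 gene of the 8 called, against 2.01% of all genes tested (1.41% higher, 0.603% lower). At an adjusted p-value under 0.05 and any fold, 4 of the 8 were higher and 0 lower in AclyM-KO macrophages (8.52% and 6.92% of all genes), and the same 4, Procr, Plau, Plaur and Serpinb2, had groups that did not overlap (30.1% of all genes, 15.4% higher and 14.7% lower). The median log2 difference of the 8 was 0.56 (0.57 without F3), against -0.01 for all genes tested.

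All 3 genes of plasminogen activation were among these 4. Serpinb2 was at 5.78 to 6.70 CPM in control and at 8.37 to 12.5 CPM in AclyM-KO macrophages at 3 h, 1.71-fold higher (log2 0.77, SE 0.14, adjusted p = 2.189e-04, edgeR quasi-likelihood test, higher in 3 of 3 libraries). The call lay at the fold threshold and was lost without AclyM-KO 3 h replicate 2 (log2 0.62, adjusted p = 0.00269), without control 3 h replicate 2 (log2 0.74) or without control 3 h replicate 3 (log2 0.74). Plaur was at 80.9 to 86.6 against 117 to 135 CPM, 1.51-fold higher (log2 0.59, SE 0.06, adjusted p = 2.968e-08), under the fold threshold. Plau was at 28.2 to 31.5 against 34.5 to 54.7 CPM, 1.48-fold higher (log2 0.57, SE 0.13, adjusted p = 0.0136), also under the threshold. Serpinb2 is an inhibitor of the protease that Plau encodes, so genes with opposing roles were higher together.

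Of the anticoagulant receptors, Procr was at 9.50 to 11.9 CPM in control and 13.7 to 16.1 CPM in AclyM-KO macrophages at 3 h (log2 0.44, SE 0.13, adjusted p = 0.0268, edgeR quasi-likelihood test), and without AclyM-KO 3 h replicate 2 its adjusted p was 0.139. Thbd gave a log2 difference of 0.61 (95% interval -0.24 to 1.46, adjusted p = 0.367). Its libraries overlapped, and at 31 counts over the 3 control libraries and 49 over the 3 AclyM-KO libraries the interval spans differences in both directions, with 6, 27 and 16 counts in the AclyM-KO libraries.

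The starters of clotting passed no test between genotypes at 3 h. F3 libraries overlapped at 2.33 to 3.84 against 3.23 to 5.51 CPM (log2 0.55, 95% interval 0.11 to 0.99, adjusted p = 0.0835, edgeR quasi-likelihood test). F7 differed by a log2 of 0.08 (95% interval -0.16 to 0.32) and F10 by 0.05 (-0.14 to 0.23), with overlapping libraries for both. AclyM-KO 3 h replicate 2 was the highest of its group for 7 of the 8 genes, F10 being the exception, while it was the highest of its group for 38.2% of all genes tested. Without it the log2 differences were 0.37 for F3, 0.39 for Plau, 0.55 for Plaur, 0.39 for Procr and 0.12 for Thbd.

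**Figure D3:**
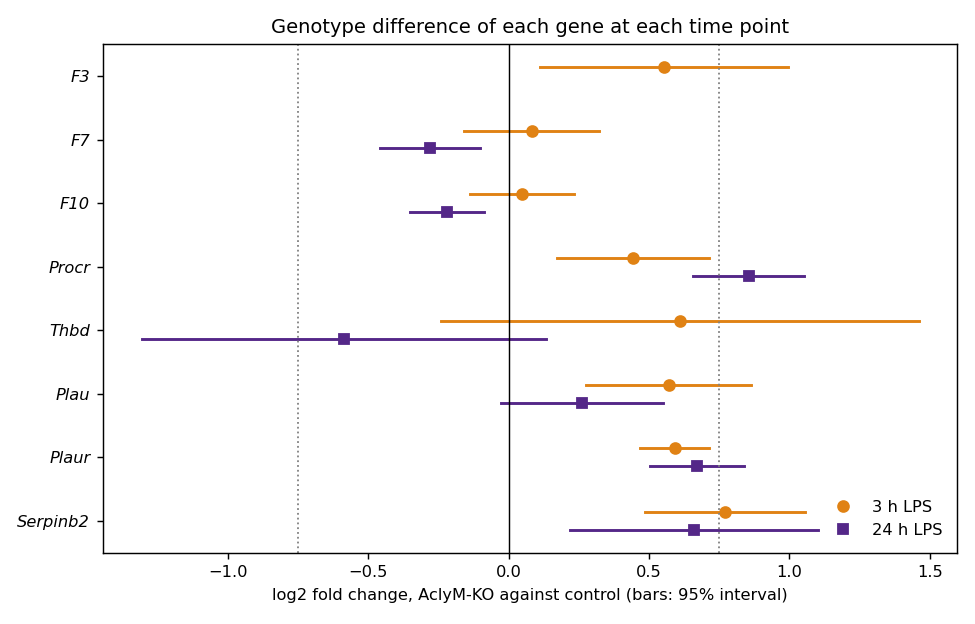
Log2 difference between AclyM-KO and control macrophages (horizontal axis) for the 8 genes at 3 h and 24 h LPS, with 95% intervals from the edgeR fit and lines at the thresholds. Plau, Plaur, Procr and Serpinb2 lay above 0 at both times, F7 and F10 lay near 0 at 3 h and below it at 24 h, and F3 has no value at 24 h, where no library held more than 3 counts.

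At 24 h, Procr was the 1 gene of the 8 called, against 1.38% of all genes tested (0.896% higher, 0.486% lower). Its 3 control libraries were at 39.0, 47.7 and 52.3 CPM and its AclyM-KO libraries at 91.8, 77.3 and 84.1 CPM, 1.81-fold higher (log2 0.86, SE 0.09, adjusted p = 6.924e-06, edgeR quasi-likelihood test, higher in 3 of 3 libraries). The groups lay well apart. With all 13 libraries the log2 difference was 0.86 (adjusted p = 4.084e-07), and leaving out each library in turn gave 0.75 to 0.96, the lowest (0.749, without control 24 h replicate 2) just under the threshold. The summed endothelial markers were also higher in AclyM-KO macrophages at 24 h, at 45.9 to 53.8 against 34.0 to 36.4 CPM. Among them Pecam1 rose (log2 1.17, adjusted p = 2.671e-05) and Kdr was higher under the fold threshold (log2 0.40, adjusted p = 2.172e-04), while Cdh5 was at 0.241 to 0.422 CPM in AclyM-KO and at 0.0820 to 0.426 CPM in control macrophages. Their part in the difference of Procr was not tested.

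At any fold, 3 of the 8 genes were higher at 24 h (Procr, Plaur and Serpinb2) and 2 lower (F7 and F10) at an adjusted p-value under 0.05, against 8.31% and 5.59% of all genes. Groups did not overlap for 6 of the 8, these 5 and Plau, against 33.0% of all genes (18.2% higher, 14.9% lower). The median log2 difference was 0.26 without F3 (0.46 with its fitted value), against 0.01 for all genes tested.

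Plaur was also higher in AclyM-KO macrophages at its lower level of 24 h. Its control libraries were at 8.94, 8.31 and 7.53 CPM and its AclyM-KO libraries at 12.6, 13.1 and 13.1 CPM, 1.59-fold higher (log2 0.67, SE 0.08, adjusted p = 8.065e-07, edgeR quasi-likelihood test), under the fold threshold. Serpinb2 was at 0.947 to 1.23 against 1.54 to 1.73 CPM (log2 0.66, SE 0.22, adjusted p = 0.0384). With all 13 libraries its adjusted p was 0.0543, and without control 24 h replicate 2 it passed the threshold at a log2 of 0.751. Plau was at 24.7 to 28.9 against 30.3 to 34.4 CPM and did not pass the test (log2 0.26, 95% interval -0.03 to 0.55, adjusted p = 0.237).

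The neighbouring genes F7 and F10 were slightly lower in AclyM-KO macrophages at 24 h. F7 was at 15.7, 15.9 and 14.6 CPM in control and at 12.5, 12.9 and 12.4 CPM in AclyM-KO macrophages (log2 -0.28, SE 0.09, adjusted p = 0.0267, edgeR quasi-likelihood test). F10 was at 101, 110 and 105 against 92.7, 86.5 and 92.5 CPM (log2 -0.22, SE 0.06, adjusted p = 0.0191). The groups did not overlap for either gene, and both differences were under the fold threshold. With all 13 libraries the log2 differences were -0.28 (adjusted p = 0.0353) and -0.21 (adjusted p = 0.0467). Thbd was at 0.656, 1.11 and 0.825 against 0.563, 0.402 and 0.729 CPM, with overlapping libraries (log2 -0.59, 95% interval -1.31 to 0.13, adjusted p = 0.299). F3 held 1, 0 and 0 counts in the control and 1, 3 and 3 counts in the AclyM-KO libraries at 24 h, too few for a fold.

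Whether the genotype difference changed with time was tested as an interaction, called at an adjusted p-value under 0.05 alone. It was called for 0 of the 8 genes by DESeq2, which gave no adjusted p for F3 and Thbd. By edgeR's quasi-likelihood test it was also called for 0 of the 8, against 9.59% of all genes tested. At an unadjusted p under 0.05 there were 4 of the 8 (F7, F10, Procr and Thbd), against 23.6% of all genes. The log2 difference at 24 h minus that at 3 h was 0.41 for Procr (95% interval 0.08 to 0.75, adjusted p = 0.120), -0.36 for F7 (-0.66 to -0.07, adjusted p = 0.118), -0.27 for F10 (-0.49 to -0.04, adjusted p = 0.131) and -1.19 for Thbd (-2.31 to -0.08, adjusted p = 0.179). For Plaur it was 0.08 (-0.13 to 0.29), for Serpinb2 -0.11 (-0.65 to 0.43) and for Plau -0.31 (-0.72 to 0.10). Some calls appeared under other settings: Procr (0.47, adjusted p = 0.0305) with the replicate number as a block, Procr (0.39, adjusted p = 0.0125) and Plau (-0.34, adjusted p = 0.0280) with no filter on low counts, and F7, Plau and Thbd without AclyM-KO 3 h replicate 1. The genotype comparisons and the time comparisons share libraries.

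The rest of the pathway was followed through 40 further coagulation and fibrinolysis genes, of which 17 passed the filter on low counts. Prothrombin (F2), the fibrinogen chains (Fga, Fgb and Fgg), protein C (Proc) and plasminogen (Plg), which the liver makes, had 0 counts in all 12 libraries. From 3 h to 24 h, 1 of the 17 rose and 11 fell in control macrophages, and 2 rose and 11 fell in AclyM-KO macrophages (20.9% higher and 19.5% lower among all genes in control). Of the 11 that fell, F5, F13a1, F2r, Plat and Serpine2 passed the filter through their 3 h libraries alone, as 3.64% of all genes tested did, so they had to fall with time. Among the 12 others, 1 rose and 6 fell in control and 2 rose and 6 fell in AclyM-KO macrophages, with median log2 fold changes of -0.80 and -0.72. Over all genes tested, 40.4% were called with time in control and 42.0% in AclyM-KO macrophages. These shares include the genes that passed through 3 h alone. F9, which is among the 12 and was not called with time, passed the filter through its 24 h libraries alone. Of the 17, those that fell in both genotypes were F5, F13a1, Vwf, F2r, Pros1, Vkorc1, Plat, Serpine2, Anxa2, S100a10 and Lrp1.

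F13a1, the subunit of the fibrin-crosslinking factor XIII, went from 14.9 to 17.4 CPM in control at 3 h to 0.0853 to 0.287 CPM at 24 h, where its control libraries held 20 counts in all. Pros1 (protein S, the cofactor of activated protein C) fell by 2.25 on the log2 scale in control, while the receptor Procr rose. Anxa2 and S100a10, which form a plasminogen-binding complex, changed by -1.64 and -2.40 on the log2 scale, and Lrp1, an endocytic receptor that clears urokinase bound to its inhibitor, by -0.96. In AclyM-KO macrophages the fall of Lrp1 (log2 -0.83) was under the fold threshold without AclyM-KO 24 h replicate 3 (-0.68) or AclyM-KO 3 h replicate 1 (-0.75).

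Genes of low level were read from their counts. F5 (factor V) held 51 counts over the control libraries at 3 h and 4 at 24 h, F2r (the thrombin receptor PAR1) 58 and 5, and Plat (tissue plasminogen activator) 77 and 3. Serpine2 (protease nexin-1), an inhibitor of thrombin and urokinase, held 43 and 17. These counts are not scaled to library size, and control 24 h replicate 4 was the deepest library at 59577343 counts. Mean CPM in control went from 0.831 to 0.0466 for F5 and from 0.946 to 0.0608 for F2r. It went from 1.25 to 0.0244 for Plat and from 0.693 to 0.202 for Serpine2. Vkorc1, of the vitamin K cycle, fell by 1.28 on the log2 scale in control. F8 (factor VIII) was the gene that rose in both genotypes, from 0.645 to 0.898 CPM to 1.23 to 1.92 CPM in control (log2 1.06, SE 0.28, adjusted p = 0.00116, edgeR quasi-likelihood test). Plgrkt, a plasminogen receptor, rose in AclyM-KO macrophages from 16.5 to 18.7 CPM to 31.0 to 36.6 CPM (log2 0.99, SE 0.08). In control it was at 16.5 to 18.4 CPM at 3 h and 24.3 to 27.4 CPM at 24 h, under the fold threshold (log2 0.54).

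**Figure D4:**
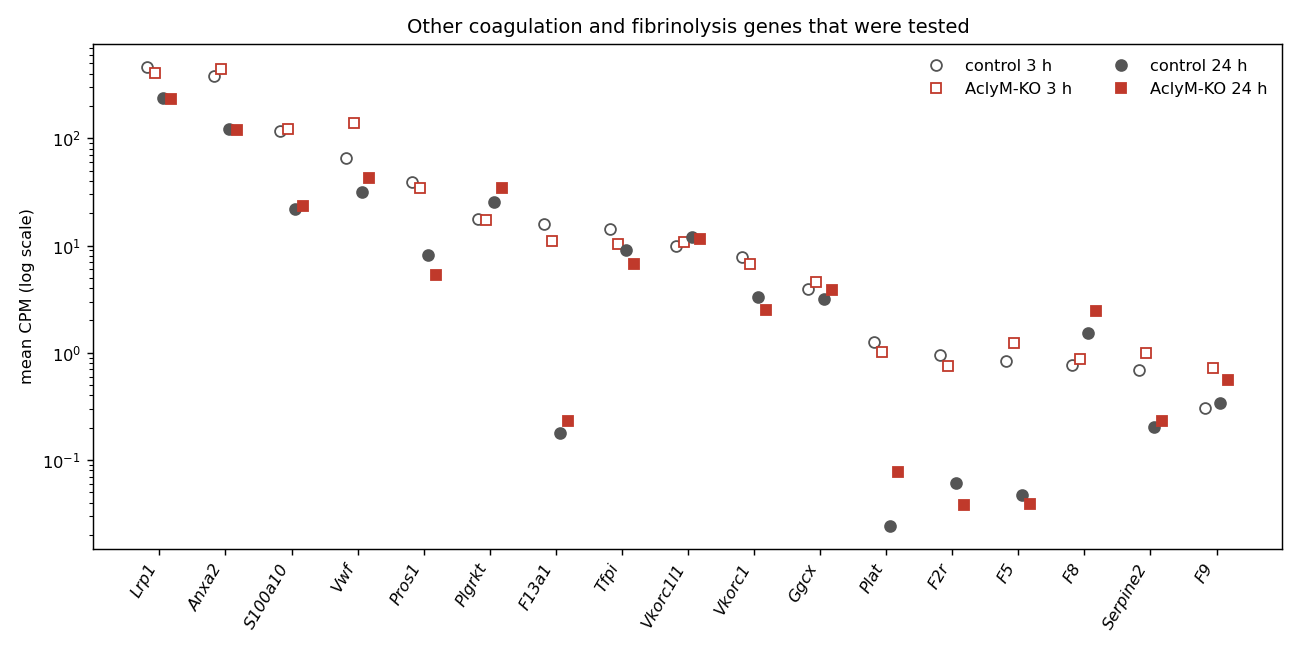
Mean CPM (vertical log axis, 3 libraries per point) of the 17 further pathway genes that passed the filter on low counts, ordered by their level in control macrophages at 3 h. Circles are control and squares AclyM-KO macrophages, open at 3 h and filled at 24 h. For 11 genes, F13a1 and S100a10 among them, both filled points were called lower than the open ones, and the open points of Vwf, at 3 h, were the pair called different between genotypes.

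Between the genotypes, 1 of these 17 genes was called at 3 h and 0 at 24 h. At an adjusted p-value under 0.05 and any fold there were 2 higher and 2 lower at 3 h, and 3 higher and 2 lower at 24 h. Over all genes tested, 2.01% were called at 3 h and 1.38% at 24 h, and at any fold 8.52% were higher and 6.92% lower at 3 h and 8.31% higher and 5.59% lower at 24 h. At an unadjusted p under 0.05 there were 6 of the 17 at 3 h and 6 at 24 h by edgeR. The share of all genes at this cut was not computed, so whether these counts exceed it cannot be said. DESeq2 also called 0 at 24 h and Vwf at 3 h. Vwf (von Willebrand factor, the carrier of factor VIII and an adhesive protein for platelets) was at 60.5, 67.2 and 67.4 CPM in control and at 146, 125 and 145 CPM in AclyM-KO macrophages at 3 h, 2.13-fold higher (log2 1.09, SE 0.07, adjusted p = 8.777e-11, edgeR quasi-likelihood test). At 24 h it was at 31.4, 35.2 and 28.4 CPM against 46.0, 42.2 and 41.2 CPM, and the difference was under the fold threshold (log2 0.46, adjusted p = 1.338e-04). The groups did not overlap at either time. The summed endothelial markers were higher in AclyM-KO macrophages by a smaller factor at 3 h, at 21.5 to 24.1 against 16.9 to 20.2 CPM. The 6 megakaryocyte and platelet markers, of which 0 passed the filter, were also higher without overlap at 3 h, at 0.666 to 0.721 against 0.234 to 0.449 CPM, with Ppbp at 27 against 6 counts over the 3 libraries. Kit, the mast cell marker tested, was called higher at 3 h (log2 0.88, adjusted p = 0.00122, edgeR quasi-likelihood test). The other mast cell markers did not go with it: Cpa3 held 13 counts in control and 14 in AclyM-KO macrophages at 3 h, and Mcpt4 and Tpsb2 held 0. The part of these markers in the difference of Vwf was not tested.

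Tfpi (tissue factor pathway inhibitor), which blocks the complex of F3 and F7, was lower in AclyM-KO macrophages at both times but under the fold threshold. It was at 13.9 to 14.7 against 9.17 to 11.3 CPM at 3 h (log2 -0.46, SE 0.10, adjusted p = 0.00125, edgeR quasi-likelihood test) and at 8.61 to 9.76 against 6.53 to 7.06 CPM at 24 h (log2 -0.43, SE 0.10, adjusted p = 0.00304), with no overlap. Pros1 was at 8.002 to 8.53 against 5.22 to 5.56 CPM at 24 h (log2 -0.61, SE 0.09, adjusted p = 2.255e-05). The interaction was called for 4 of the 17, which were Vwf (-0.64), Pros1 (-0.44) and Anxa2 (-0.24) in the lower and Plgrkt (0.45) in the higher direction, against 4.71% and 4.88% of all genes. DESeq2 called the same 4. The call of Anxa2 was lost with all 13 libraries (adjusted p = 0.383), and also without AclyM-KO 24 h replicate 1 (0.0506), AclyM-KO 24 h replicate 2 (0.0653), AclyM-KO 3 h replicate 3 (0.0604) or control 24 h replicate 2 (0.0540). That of Plgrkt was lost without control 3 h replicate 1 (adjusted p = 0.0510).

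The time course also sorted the 8 genes among themselves. Over the 12 libraries, Pearson's r of log2 CPM was 0.990 between F3 and Plaur, 0.989 between Plaur and Serpinb2, and 0.982 between F7 and F10, whereas F10 and Plaur ran opposite to each other at -0.986. Procr went with F10 at 0.937 and against Plaur at -0.886. Thbd lay within -0.198 and 0.339 of every other gene, and Plau reached 0.673 with Serpinb2. These coefficients are descriptions: the libraries fall into the 4 groups, and most of the spread is the step between 3 h and 24 h. Among 10608 genes with a mean of at least 1 CPM, the profiles most like that of Plaur were Ripk2 (r = 0.9986) and Arid5a (0.9985), and those most like F10 were Klhdc10 and Helb (both 0.9971). For F3 they were Atp8b4 (0.9955) and Tmem109 (0.9943), for F7 Tada2a (0.9934), for Procr Rcbtb1 (0.9965) and Ahcyl1 (0.9931), and for Serpinb2 Mgat1 (0.9968) and Lipg (0.9953). Plau was most like Selenoh (0.9503) and Mtfr2 (0.9421), and Thbd had the weakest likeness, to P2ry10b (0.8748) and Tmx4 (0.8553).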

How the data were processed

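mRNA libraries of LPS-activated BMDMs were sequenced by the authors and aligned to mm10 with STAR 2.5.2b (the submitters' processing notes also list CASAVA 1.8.2), and HOMER summed the tags of each RefSeq transcript. The deposited values are raw counts, whole numbers without normalization, for 35745 transcripts in 13 libraries, and 0 columns were left unused. The strand and isoform settings of the counting are not given in the sources used here, so reads shared with overlapping or antisense genes could be counted for either.

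Symbols were matched for 35628 transcripts through RefSeq and GENCODE tables. The 117 others took 1.13% of counts and stayed in the library sizes. From the counts, R 4.3.3 with edgeR 4.0.16 was used (limma 3.58.1): TMM normalization, filterByExpr on the 4 groups (19621 transcripts of 11942 genes), robust quasi-likelihood fits with 1 mean per group over 12 libraries, and Benjamini-Hochberg adjustment over all transcripts. Control 24 h replicate 1 was left out for its 34467 counts. CPM are scaled to TMM library sizes. With 21274102 to 59577343 counts per library, 1 count was 0.0153 to 0.0512 CPM, and intervals on counts cover counting error only. For the ratios of F3, exact intervals of the summed counts were computed. Patterns were compared by Pearson's r of log2(CPM + 0.5). The fits were tested on simulated data. The replicates of a group differed by more than sampling noise (chi-square per degree of freedom 2.67 to 11.96), so none was counted as a duplicate. Alternatives were RLE size factors, DESeq2 1.42.0, no filter on low counts, all 13 libraries, a replicate block, 1 transcript per gene, fits of the compared groups alone, and leaving out each library.

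The 8 genes and all lists were chosen with earlier results of these data known. The text names the 8 genes, Acly, every further pathway gene called in a comparison, and the 2 genes most like each of the 8. A few genes are left unreported, and counts over the further pathway genes do not include them. Tfpi, the genes at 0 counts and the single cell type markers were named once their values were known.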

Additional observations from a re-analysis of the deposited data

Results flagged for a closer look

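In the 4 control libraries at 24 h, the gap between one library and the nearest other one took up an unusually large share of the group's whole range for 12 genes. This share was 1 for F3, 0.921 for F7, 0.899 for F10, 0.897 for Plau, 0.902 for Plaur and 0.987 for Serpinb2. It was 0.94 for Acly, 0.886 for Vwf, 0.938 for Pros1, 0.993 for Anxa2, 0.942 for S100a10 and 0.838 for Plgrkt. Among values free to take any level, chance gives such a share in about 1 in 20 groups, a rate that does not apply here. For F3 the library that stood out was control 24 h replicate 2, with its single count against 0 in the others, which sets the share at 1. For the other 11 genes it was control 24 h replicate 1, in which 1 count equals 22.41 CPM, so that its values can only move in steps of that size.

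The genotype difference changed between 3 h and 24 h for 5 genes by the test of the interaction (edgeR quasi-likelihood test, log2 difference at 24 h minus that at 3 h). It was -0.54 for Acly (adjusted p = 9.289e-05), which was lower in AclyM-KO macrophages at both times and further below control at 24 h. It was -0.64 for Vwf (adjusted p = 2.276e-04), -0.44 for Pros1 (adjusted p = 0.0132), -0.24 for Anxa2 (adjusted p = 0.0227) and 0.45 for Plgrkt (adjusted p = 0.0118). The call of Anxa2 was lost in 6 alternatives: with all 13 libraries (adjusted p = 0.383), with the replicate number as a block (0.0513), and in 4 fits that left out a single library (0.0506 to 0.0653). None of these 5 is among the 8 genes of clotting and plasminogen activation.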

How the results depend on the processing

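Of the alternatives computed, 1205 values kept their direction and their side of the threshold (counts stayed within 1.5 times). The number of the 8 genes called at 3 h was 0 to 1 when single libraries were left out. It was 0 without AclyM-KO 3 h replicate 2, control 3 h replicate 2 or control 3 h replicate 3, each time by the loss of Serpinb2. At 24 h it stayed at 1, but without control 24 h replicate 2 the gene called was Serpinb2 and no longer Procr. For the interaction, 0 of the 8 were called, 2 with no filter on low counts, and 0 to 3 when single libraries were left out, the 3 being F7, Plau and Thbd without AclyM-KO 3 h replicate 1. Without AclyM-KO 3 h replicate 2 or without control 3 h replicate 1 the 1 gene called was F10, and without control 24 h replicate 4 it was Procr. The causes were not tested. Signs turned when single libraries were left out for F10 at 3 h (-0.03 to 0.167, the lowest without control 3 h replicate 2) and for the interaction of Plaur (-0.009 to 0.134, the lowest without control 24 h replicate 4). They also turned for the interaction of Serpinb2 (-0.244 to 0.035) and for Thbd with time in AclyM-KO macrophages (-0.792 to 0.039), the highest each without AclyM-KO 3 h replicate 2. None of these 4 values had been called. DESeq2 gave no adjusted p for Thbd between genotypes or for Thbd and F3 in the interaction. The number of all genes called was 191 to 324 at 3 h (240 as reported) and 132 to 198 at 24 h (165 as reported).

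Libraries of different groups share a replicate number, and the names of their columns also carry serial numbers. Of 15 same-numbered pairs, within and between genotypes, 1 had deviations correlated above 0.1 (range -0.053 to 0.103). Pairs between genotypes come from different mice, so this range does not settle whether the times are paired within a genotype. The main fits took no pairs. By serial order, control 3 h replicate 1 goes with control 24 h replicate 4 (r = 0.1), which differ in replicate number. The other pairs in serial order within a genotype were at 0.01 and 0.084 in control and 0.062, 0.05 and 0.064 in AclyM-KO macrophages. Pairs out of serial order within a genotype lay between -0.116 and 0.03. Blocks by replicate number did not hold the pair of control 3 h replicate 1 and control 24 h replicate 4, and no fit used the serial order. If the libraries are paired in that order, the tests with time and of the interaction did not take it into account. With the replicate number as a block, 1 of the 8 genes was called for the interaction, Procr (0.467, adjusted p = 0.0305), and the calls of F8 with time in control (0.648, adjusted p = 0.0580) and of Anxa2 for the interaction (adjusted p = 0.0513) were lost.

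Depth limits F3 at 24 h, where no library held more than 3 counts.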
